A study of Mus musculus with 4 samples.

Results

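The maternally expressed imprinted growth restrainers examined here were 7 genes, H19, Meg3, Cdkn1c, Grb10, Igf2r, Phlda2 and Zim1. They were chosen by gene symbol among the 33465 gene labels of a table of 37996 features that compares cells sorted from mouse fetal liver with cells sorted from adult bone marrow. The labels in that table are shifted against the values and had to be placed again. The labels of 5 members (H19, Cdkn1c, Grb10, Igf2r and Phlda2) were placed on 1 feature each, and Meg3 and Zim1, whose labels could not be placed, are treated as not measured.

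Both groups were primary cells of C57BL/6 mice, isolated by FACS, from fetal liver in 2 libraries (replicate numbers 1 and 2) and from adult bone marrow in 2 libraries (replicate numbers 2 and 3). The series concerns a niche of hematopoietic stem cells beside portal vessels in fetal liver, and the design describes the comparison as one of niche transcriptomes in the fetus and the adult. The sort markers, the gestational age and the age of the adults were not given in the sources used here, and no treatment or genetic change is named for either group. The cDNA was made with a low-input SMARTer kit, and no label says whether each library had its own animals, so that p-values reflect only how far these libraries differ, which may be technical.

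Imprinted genes are expressed mainly from a single parental copy, according to DNA methylation laid down in the egg or the sperm. Many paternally expressed genes promote fetal growth, and many maternally expressed ones restrain it by blocking the cell cycle, damping insulin and IGF signalling or clearing IGF2. In mice, many imprinted growth genes are abundant in fetal organs and decline after birth, and Cdkn1c and the H19 domain are known for their part in the quiescence of hematopoietic stem cells. The reads here do not tell the parental copies apart.

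Sequences are shown for the microRNAs that H19 carries and for the promoters of members that ended differently in the comparison: Grb10, which was higher in fetal liver, Igf2r, on which 2 tests disagreed, and Phlda2, which was near the detection limit. They were taken from RefSeq tables on GRCm38.p6, a later build than the mm9 of the authors, and are written 5′ to 3′. No promoter window of H19 or Cdkn1c was available there. The H19 transcript is the precursor of miR-675, and capitals mark the seed (bases 2 to 8) of both arms, which do not share a seed.
mmu-miR-675-5p, chr7:142577112-142577133, minus strand: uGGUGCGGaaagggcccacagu
mmu-miR-675-3p, chr7:142577078-142577099, minus strand: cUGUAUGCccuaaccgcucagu

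The promoter windows are 300 bases long around an annotated transcription start, and capitals mark 2 motifs searched on both strands, TATAAA and GGGCGG, the core of the GC box. All windows of that length numbered 32841, of which 13.6% held TATAAA and 35.7% held GGGCGG. Another motif searched, GGGGCCCC (1.08% of windows), had no match in those shown.
Grb10 promoter, chr11:12037371-12037670, minus strand: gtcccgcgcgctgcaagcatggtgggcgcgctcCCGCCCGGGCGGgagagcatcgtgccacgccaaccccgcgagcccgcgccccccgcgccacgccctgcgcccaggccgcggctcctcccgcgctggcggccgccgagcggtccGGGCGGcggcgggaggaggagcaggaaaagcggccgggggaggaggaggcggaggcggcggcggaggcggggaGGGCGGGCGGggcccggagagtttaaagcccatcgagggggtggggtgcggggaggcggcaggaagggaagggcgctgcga
Igf2r promoter, chr17:12769657-12769956, minus strand: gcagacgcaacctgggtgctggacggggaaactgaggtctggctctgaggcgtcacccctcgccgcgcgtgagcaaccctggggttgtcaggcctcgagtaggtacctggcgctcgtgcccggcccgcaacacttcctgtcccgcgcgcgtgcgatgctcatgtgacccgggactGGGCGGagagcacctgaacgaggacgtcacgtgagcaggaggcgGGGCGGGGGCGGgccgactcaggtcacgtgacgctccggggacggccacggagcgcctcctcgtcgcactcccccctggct
Phlda2 promoter, chr7:143502475-143502774, minus strand: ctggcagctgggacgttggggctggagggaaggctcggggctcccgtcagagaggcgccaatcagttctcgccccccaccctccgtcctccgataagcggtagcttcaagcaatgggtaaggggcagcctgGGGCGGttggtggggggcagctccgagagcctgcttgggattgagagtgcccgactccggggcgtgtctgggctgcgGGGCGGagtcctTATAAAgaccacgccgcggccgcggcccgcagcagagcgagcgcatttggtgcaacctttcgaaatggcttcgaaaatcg
The Grb10 window held 5 matches of GGGCGG, some of them overlapping, and 45 CpG dinucleotides, against a median of 7 over all windows. The Igf2r window held 3 matches of GGGCGG and 34 CpG. The Phlda2 window held 2 matches of GGGCGG, 1 match of TATAAA and 26 CpG. A second annotated start of Grb10 had 9 CpG and no match of either motif. The matches describe letters in these windows and do not show that a factor was bound. The CpG content of promoters was also used in placing the labels, so these counts cannot be set against the calls as separate evidence.

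The libraries held 223361 to 2546089 reads, as recovered from group means of at most 10000, and the shallower bone marrow library was the smallest. Among features whose mean reached 100, 92.1% had the higher mean in fetal liver. Of 35605 tested features, 4.12% were called higher and 0.129% lower at an adjusted p under 0.05 in the authors' deposited table. The share called higher was 8.86% where the mean reached 10 and 58.5% where it reached 100 (1081 features). The median absolute log2 difference between the libraries of a group was 0.52 for bone marrow and 0.50 for fetal liver. Sums of placed markers of hepatoblasts, mural cells and hematopoietic cells differed between the groups, though not all markers of a list moved the same way. The summed level of 5 hepatoblast markers was 126 and 112 normalized reads in bone marrow and 2189 and 2566 in fetal liver. Most of the fetal liver sums came from Dlk1 (1620 and 1962), which is itself an imprinted gene, while Alb and Afp were called higher, Ttr was not called and Hnf4a went from 27.6 to 20.3 without a call in the authors' deposited table. The sum of 7 mural (pericyte and smooth muscle) markers was 137 and 160 in bone marrow and 1328 and 3082 in fetal liver, and that of 5 hematopoietic markers was 348 and 88.6 in bone marrow and 25.8 and 48.8 in fetal liver. Of the mural markers 4 were called higher, and Des went from 27.9 to 13.5 without a call in the authors' deposited table. In the deeper bone marrow library S100a8 (166) and S100a9 (118) made up most of the hematopoietic sum, and S100a9 was the 1 hematopoietic marker called lower. The endothelial markers summed to 136 and 85.8 in bone marrow and 113 and 115 in fetal liver, and the 3 placed erythroid markers to at most 58.3 in any library. No placed marker of these lists was at 0 in both libraries of a group. Their part in the results below was not tested, and in such bulk samples fewer cells of a type and less RNA per cell cannot be told apart.

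Normalized reads of 3 maternally expressed restrainers, Cdkn1c, H19 and Grb10, were far higher in the fetal liver libraries than in the bone marrow libraries. Of the 5 placed members, 3 were called higher in fetal liver by the test of the authors' deposited table, where 4.12% of all tested features were, and Igf2r and Phlda2 were not called. No placed member was lower (0.129% of all features), also at an unadjusted p under 0.05 (0 members), and limma called 4 higher (19.2% of its features) and 0 lower (2.87%). Cdkn1c, H19, Grb10 and Igf2r had a mean over both groups above 100 normalized reads, and 3 of these 4 were called higher, in a range where the call was common (58.5% of features). The median log2 ratio of the 5 placed members was 3.64, against -0.34 over all tested features and 2.26 over those whose mean reached 100. In the 4 placed members whose mean reached 10, the groups did not overlap and fetal liver was above, as in 37.3% of all such features.

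**Figure D1:**
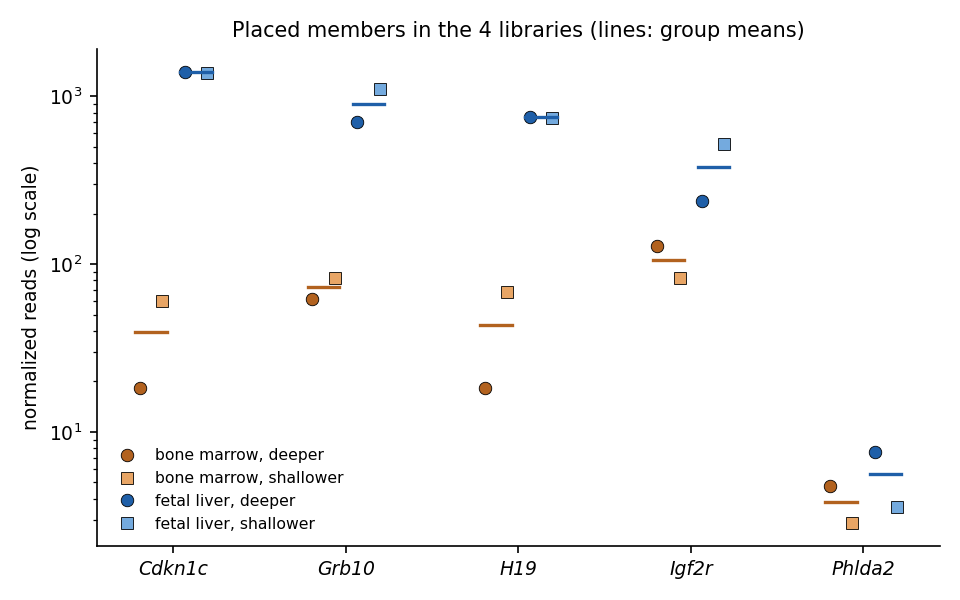
Normalized reads (log scale) of the 5 placed members in the 4 libraries, with points for libraries and lines for group means. Fetal liver libraries lie above bone marrow libraries for Cdkn1c, Grb10, H19 and Igf2r, while those of Phlda2 overlap at 2.86 to 7.58.

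Cdkn1c encodes p57, a Cip/Kip inhibitor that holds cyclin-dependent kinases in check and keeps stem cells quiescent. It had 18.2 and 60.05 normalized reads in the deeper and then the shallower bone marrow library, from 27 and 21 reads, and 1399 and 1375 in the fetal liver libraries, from 3691 and 1156 reads. The fetal liver libraries were almost equal, and both stood far above the bone marrow libraries, which differed from each other. The group means in the authors' deposited table were 39.1 and 1387, a ratio of 35.4 (authors' adjusted p = 2.8e-05). The limma log2 fold change was 5.34 ± 0.57 (SE, 2 libraries per group, adjusted p = 1.84e-05 over 16501 features). The bone marrow mean rests on few reads, and the ratio was 23.1 without the deeper bone marrow library and 76.0 without the shallower one. Per kilobase of exon, Cdkn1c rose from 19.2 to 680 normalized reads, the highest fetal liver level of the 5 placed members on that scale. In GENCODE M21, 30.7% of its exonic bases are shared with a gene on the opposite strand, Gm44732, and since no strand setting is stated, reads of both cannot be told apart.

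H19 is a long noncoding RNA of the Igf2 domain, and the precursor of miR-675. It had 18.2 and 68.6 normalized reads in bone marrow, from 27 and 24 reads, and 757 and 740 in fetal liver, from 1999 and 622 reads. As for Cdkn1c, the fetal liver libraries were close together and the bone marrow libraries lay low and apart. In the authors' deposited table the means were 43.4 and 748.5, a ratio of 17.2 (authors' adjusted p = 0.00307). The limma log2 fold change was 4.36 ± 0.55 (SE, 2 libraries per group, adjusted p = 5.82e-05). Leaving out the deeper bone marrow library gave a ratio of 10.9, and leaving out the shallower gave 41.0. H19 rose from 17.7 to 304 normalized reads per kilobase of exon. Its place is the least certain of the 5, with a posterior of 0.955, and of 0.909 under 1 of 3 fold splits of the score. The next candidate feature had a ratio of 21.9 in the authors' deposited table and was called higher as well. The 2 candidates lie side by side in the order of p-values, and few features were called lower (0.129%). Their shared call is therefore no separate support for the direction. The miR-675 hairpin overlaps 3.41% of the exonic bases of H19, and the level of the mature microRNA was not measured.

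Grb10 encodes an adaptor that binds the insulin and IGF1 receptors and damps their signalling. It had 62.2 and 82.9 normalized reads in the bone marrow libraries, from 92 and 29 reads, and 705 and 1105 in the fetal liver libraries, from 1861 and 929 reads. The groups did not overlap, and the fetal liver libraries differed more from each other than for Cdkn1c and H19. The authors' deposited table gave means of 72.5 and 904.9, a ratio of 12.5 (authors' adjusted p = 9.67e-10). The limma log2 fold change was 3.60 ± 0.54 (SE, 2 libraries per group, adjusted p = 0.000193). Leaving out any of the 4 libraries gave a ratio between 9.72 and 15.2. In mice Grb10 is expressed from the maternal copy in most tissues and from the paternal copy in neurons, through different promoters, and the reads here do not separate its starts.

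Igf2r encodes the cation-independent mannose 6-phosphate receptor, which takes IGF2 to the lysosome for degradation and sorts lysosomal enzymes. It had 128 and 82.9 normalized reads in the bone marrow libraries, from 190 and 29 reads, and 237 and 521 in the fetal liver libraries, from 625 and 438 reads. The groups did not overlap, with the highest value in the shallower fetal liver library. The authors' deposited table gave means of 105.6 and 378.8 and a ratio of 3.59, which did not pass the authors' test (authors' adjusted p = 0.536). The limma log2 fold change of 1.76 ± 0.52 (SE, 2 libraries per group) did pass (adjusted p = 0.0234), so that the call depended on the test. Without the shallower fetal liver library the limma log2 fold change was 1.19 and the ratio 2.24. The limma log2 fold change was 2.32 without the deeper fetal liver library, 2.07 without the deeper bone marrow library and 1.45 without the shallower one. In each of these fits 1 group had a single library, which was assumed to vary like the other group, so that only the change is given. With libraries scaled to equal totals of recovered reads, the limma log2 fold change of Igf2r was 1.05 (adjusted p = 0.108).

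Phlda2 encodes a small pleckstrin homology domain protein that limits placental growth in mice. It had 4.73 and 2.86 normalized reads in bone marrow, from 7 reads and 1 read, and 7.58 and 3.57 in fetal liver, from 20 and 3 reads. The groups overlapped. The ratio in the authors' deposited table was 1.47, with an adjusted p of 1 there, and a difference was not detectable at this depth. With 1 read worth up to 2.86 normalized reads, it also fell under the minimum mean of the limma fit, and a limma fit with no minimum gave a log2 fold change of 0.41 (adjusted p = 0.838).

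**Figure D2:**
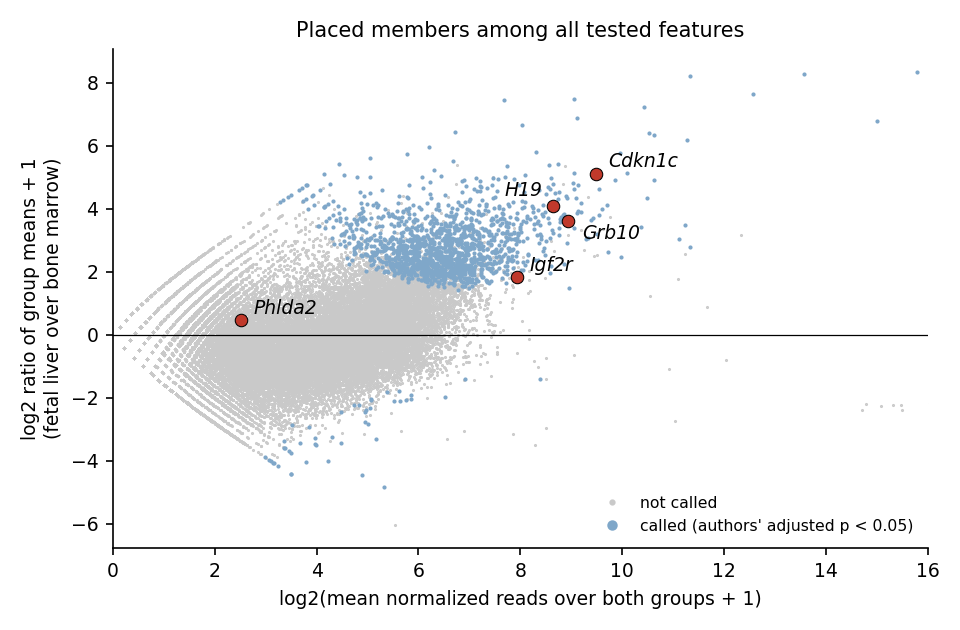
Log2 ratio of group means + 1 against the log2 of the mean normalized reads over both groups + 1, for 35605 tested features (grey, not called; blue, called at an authors' adjusted p under 0.05) and the 5 placed members (red). Cdkn1c, H19 and Grb10 lie among the called features at high means, Igf2r at their lower edge and Phlda2 in the uncalled mass at low means.

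Meg3, a long noncoding RNA of the Dlk1 domain that acts as a growth suppressor, and Zim1, an imprinted zinc finger gene near Peg3, were not tied to 1 feature. The Meg3 label had 2 candidate features, with posteriors of 0.757 and 0.242. The authors' deposited table gave them means of 59.7 and 863 (ratio 14.4) and of 9.77 and 263 (ratio 26.9), and called both higher in fetal liver. Both lie side by side in the order of p-values, so that the shared call is no separate support. Zim1 had 4 candidates, of which the first had a posterior of 0.668, and their ratios in the authors' deposited table ran from 2.04 to 3.95 with no call. These values belong to candidate features, are not given as levels of Meg3 or Zim1, and do not enter the count of 3 members called higher.

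**Figure D3:**
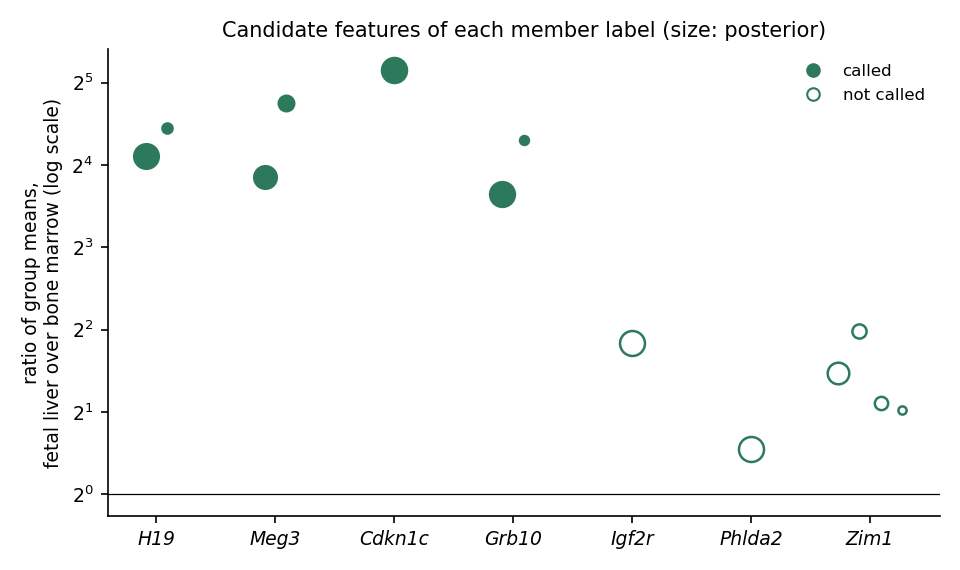
Ratio of group means (fetal liver over bone marrow, log scale) of each candidate feature of the 7 member labels, with the point size following the posterior and filled points for features that the authors' test called. Among features of posterior 0.01 or more, all candidates of H19, Meg3, Cdkn1c and Grb10 are called and above a ratio of 12, and all of Igf2r, Phlda2 and Zim1 are not called. Candidates of a label lie close together in the order of p-values, so that a shared call follows from the placement.

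None of the relatives and other adaptors set beside Cdkn1c, Grb10, Igf2r and Phlda2 was called in the authors' deposited table. Most features were not called there either (4.12% of tested features higher, 0.129% lower). Ratios between genes were computed within each library per kilobase of exon, which does not depend on how libraries are scaled, and were chosen with the values known. With 2 libraries against 2, a two-sided exact permutation test cannot give a p below 0.333, so that these ratios are a description. The other Cip/Kip inhibitors, Cdkn1a (p21) and Cdkn1b (p27), went from 23.3 to 13.9 and from 53.9 to 33.4 normalized reads in the authors' deposited table, with no call. Cdkn1c had 1.52 and 4.07 times the level of Cdkn1a in the bone marrow libraries and 143 and 224 times in the fetal liver libraries. Against Cdkn1b it had 1.47 and 1.67 times in bone marrow and 108 and 80.6 times in fetal liver. For both relatives, the ratios of the fetal liver libraries lay above those of the bone marrow libraries. Over all features, the median log2 ratio was 2.26 where the mean reached 100, as for Cdkn1c, and 0.11 where it reached 10. A rise of a gene of high mean over one of low mean is therefore not particular to Cdkn1c.

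Of 12 listed partners of Cdkn1c, all placed, 5 were called higher in the authors' deposited table and none lower. They were the D cyclins Ccnd1 (5.50-fold), Ccnd2 (4.17-fold) and Ccnd3 (11.4-fold) and the kinases Cdk4 (7.995-fold) and Cdk1 (7.15-fold). All 12 had a mean of 10 or more, where the authors' test called 8.86% of features higher, and 58.5% where the mean reached 100. At an unadjusted p under 0.05, 0 were lower. Limma called 7 higher (19.2% of all its features) and 0 lower (2.87%). The median log2 ratio of the list was 1.63, against 0.11 over features of mean 10 or more and 2.26 over those of 100 or more. Cyclins E and A, Ccne1, Ccne2 and Ccna2, had ratios of 3.23, 1.36 and 2.95 in the authors' deposited table and were not called. Cdkn1c had 0.844 and 1.24 times the level of Cdk4 in bone marrow and 5.31 and 4.63 times in fetal liver.

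Among the receptor adaptors, Grb2, Grb7 and Grb14 had ratios of 1.64, 0.952 and 1.24 in the authors' deposited table, with no call. The receptors that Grb10 binds, Insr and Igf1r, had ratios of 1.59 and 1.96 in the authors' deposited table and were not called. The Grb10 level was 2.11 and 4.87 times that of Insr in bone marrow and 19.02 and 29.9 times in fetal liver. Of 29 listed partners of Grb10 and Igf2r, 27 were placed, of which 3 were called higher in the authors' deposited table and none lower. Among the called genes of the authors' deposited table were Nedd4 (16.2-fold), a ubiquitin ligase that binds Grb10, and Igf1 (10.01-fold), a growth factor. Limma called 9 higher (19.2% of all its features) and 0 lower (2.87%), and 0 were lower at an unadjusted p under 0.05. All 27 had a mean of 10 or more, where 8.86% of features were called higher and the median log2 ratio was 0.11, and the list median was 0.73. The uncalled genes of highest mean, Ctsb, Ctsl and Pik3ca, had ratios of 2.97, 5.82 and 3.09 in the authors' deposited table.

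The relative of Igf2r is M6pr, the cation-dependent mannose 6-phosphate receptor. M6pr had a ratio of 3.65 in the authors' deposited table, with an adjusted p of 0.0579 there, and Igf2r had 2.43 and 1.18 times its level in bone marrow and 1.17 and 2.11 times in fetal liver, so that these ratios overlapped between the groups. For Phlda2, the relatives Phlda1 and Phlda3 had ratios of 4.25 and 1.27 in the authors' deposited table and were not called, although limma called Phlda1 higher (1.99 ± 0.52, SE, 2 libraries per group, adjusted p = 0.0112).

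**Figure D4:**
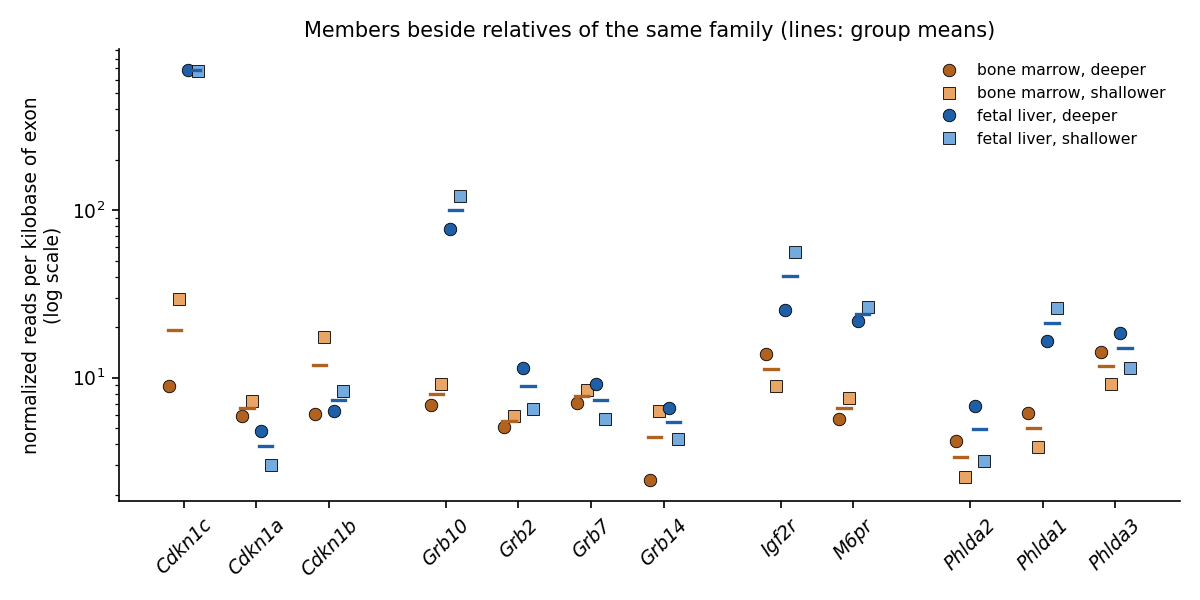
Normalized reads per kilobase of exon (log scale) of members and of their relatives or, for Grb2, another adaptor, in the 4 libraries, with lines for group means. Cdkn1c and Grb10 lie above all genes set beside them in both fetal liver libraries, and Igf2r lies above M6pr in each of the 4 libraries.

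The neighbours of members in their imprinted domains were read in the same way, except Igf2 beside H19, whose label could not be placed. Airn, the paternally expressed noncoding RNA that runs antisense to Igf2r and silences its paternal copy, had a ratio of 5.47 in the authors' deposited table, with an adjusted p of 0.0468 there. Igf2r had 2.10 and 2.80 times the level of Airn in bone marrow and 1.08 and 1.88 times in fetal liver. Their annotated exons share no bases, but unspliced Airn crosses the Igf2r gene, and reads of both strands are not told apart. Next to Grb10, Cobl had a ratio of 1.44 in the authors' deposited table and was not called. Grb10 had 1.42 and 1.62 times its level in bone marrow and 17.4 and 11.6 times in fetal liver. On chromosome 7, Cd81, a tetraspanin gene of the Cdkn1c and Phlda2 cluster, was called higher with 12.4-fold in the authors' deposited table, while Kcnq1, Slc22a18, Tssc4 and Ascl2 of that cluster were not called. Of 5 listed genes of the Zim1 cluster, Peg3 alone was placed, and it was called higher with 12.7-fold in the authors' deposited table. Beside Meg3, Dlk1 was called higher with 30.2-fold in the authors' deposited table. Dlk1 is also one of the hepatoblast markers above.

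The 57 other imprinted genes listed were divided by the parental expression assigned in the lists, which was not measured in these cells and can differ between tissues. Of 33 other maternally expressed genes, 27 were placed and 4 were called higher in the authors' deposited table, none lower: Gnas (30.5-fold), Cd81 (12.4-fold), Copg2 (10.1-fold) and Asb4 (6.52-fold). The median log2 ratio of that list was 0.52. Of its uncalled genes, Dcn, a matrix proteoglycan, Ppp1r9a and Ano1 had the highest means, with ratios of 13.3, 2.53 and 1.64 in the authors' deposited table. Of 24 paternally expressed genes, 16 were placed and 8 were called higher in the authors' deposited table, none lower: Plagl1 (36.0-fold), Dlk1 (30.2-fold), Mest (25.0-fold), Ndn (15.9-fold), Nnat (14.9-fold), Peg3 (12.7-fold), Sgce (7.16-fold) and Airn (5.47-fold). Their list had a median log2 ratio of 2.59. The uncalled genes of highest mean, Zdbf2, Snrpn and Nap1l5, had ratios of 1.26, 3.78 and 2.37 in the authors' deposited table. At an unadjusted p under 0.05, 0 placed genes of both lists were lower in the authors' deposited table, and limma called 0 lower. Limma called 7 of the 27 and 9 of the 16 higher, against 19.2% of all its features (2.87% were lower). The authors' test called 8.86% of all features of mean 10 or more higher, and 58.5% where the mean reached 100. The difference between the lists was not tested. Of 12 listed factors that maintain or read imprints, 10 were placed, and Trim28 was called higher in the authors' deposited table, with 4.39-fold, while Dnmt3a, Smchd1 and Dnmt1 had ratios of 1.26, 3.70 and 1.59 and were not called.

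**Figure D5:**
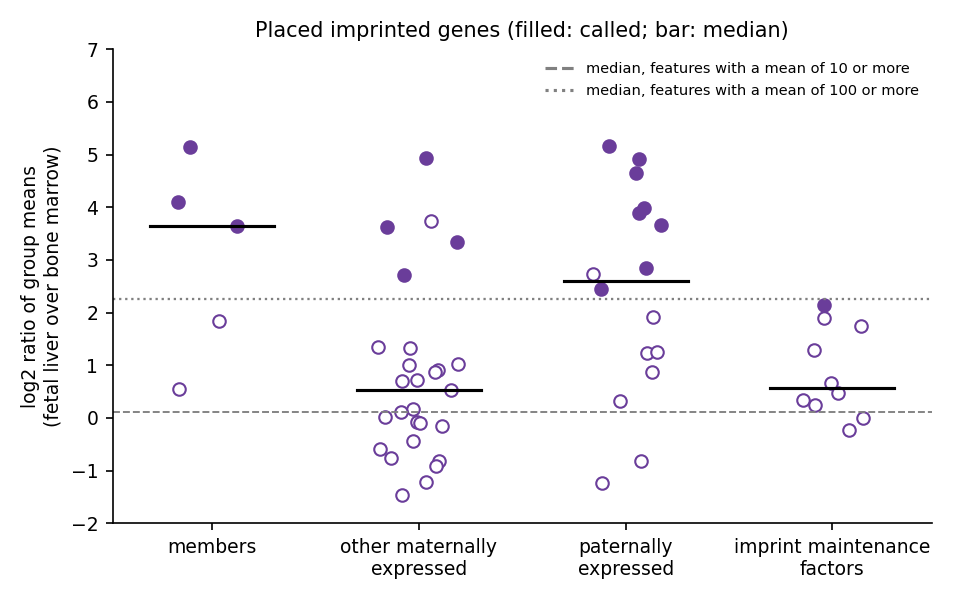
Log2 ratio of group means (fetal liver over bone marrow) of the placed genes in each list of imprinted genes and of imprint maintenance factors, filled where the authors' test called them, with bars for list medians and lines for features of a mean of 10 or more (0.11) and of 100 or more (2.26). The medians are 3.64 for the members, 0.52 for other maternally expressed genes and 2.59 for paternally expressed genes.

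The genes with the most similar values over the 4 libraries were found by Euclidean distance on log2(normalized reads + 1) among 20552 placed genes. For Cdkn1c they included the ribosomal protein genes Rplp0 (distance 0.67) and Rpl32 (0.74). For H19 they were Cdc42 at 0.22, the cofilin gene Cfl1 at 0.48 and the chaperone gene Hspa8 at 0.62. For Grb10 they were Xist at 0.46, the transcription factor gene Nfib at 0.48 and Copg2 at 0.83, itself a maternally expressed gene of the list above. Igf2r was nearest to the matrix genes Fbn1 at 0.67 and Reln at 0.74 and to Mprip at 0.74. For the low gene Phlda2 they were Cyp2c68 at 0.17, Rps12-ps10 at 0.27 and Gm9898 at 0.29, all with few reads. With 4 libraries in 2 groups, any gene with such a level and such a ratio comes out as near.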

How the data were processed

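RNA was sequenced from 2 fetal liver and 2 bone marrow libraries, and the data used were a deposited table of the comparison. Per the submitters' processing notes, the tools included GSNAP, HTSeq and DESeq and the build was mm9. The annotation, filters and tool versions were not given in the sources used here. Per the file headers, the table holds the authors' normalized read signal as a mean per group, their ratio (fold) of fetal liver over bone marrow, a p-value and an adjusted p-value. Of 37996 features, 35605 had a p-value. A feature was called at an authors' adjusted p under 0.05.

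The table lists 33465 labels at its top and leaves its last 4531 features unlabelled, so labels were placed again. A hidden Markov model kept label order and used identifier order within equal p-values (assumed, error rate 0.001). It also used a LightGBM 4.6.0 score, bounded at 4, from 5 folds and 3 fold splits. The score set gene structure (GENCODE M21), CpG and GC content of the promoter, symbol prefix and identifier number against level and feature position. A label was placed at a posterior of 0.95 or more, which 64.3% of 31957 labels reached, and values are given for these only. On simulated labels 99.8% of 19795 placements were right, an upper estimate, because the structures came from the placement itself.

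The reads of each library were recovered from group means as whole multiples of what 1 read is worth (0.676 and 2.86 normalized reads in bone marrow, 0.379 and 1.19 in fetal liver). A single solution existed for 34525 of 34525 bone marrow and 31919 of 31921 fetal liver means up to 10000. The files do not say which replicate number each recovered library has, so depth names them. Log2(normalized reads + 1) was tested with limma 3.58.1 (R 4.3.3) and a mean-variance trend over 16501 features of mean 10 or more, with Benjamini-Hochberg adjustment. Named were all members, each placed called gene of the lists, at most 3 uncalled genes per list by mean, and the 3 genes nearest to each placed member in level, of which 1 called gene and 1 near gene are not reported here. Family relatives, receptors and domain neighbours were named after their values had been seen. The members and lists were chosen with earlier results of these data known. The closing section gives the main alternatives. Also tried were TMM (trimmed mean) factors, pseudocounts of 0.5 and 10, no minimum mean, and group means + 1 or + 10. A further one adjusted the authors' p-values over features of mean 10 or more. None of these changed the count of members called. The last raised the partners and relatives called higher from 8 to 12.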

Additional observations from a re-analysis of the deposited data

How the results depend on the processing

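The count of 3 placed members called higher became 1 (Cdkn1c) at a posterior of at least 0.99, which H19 and Grb10 do not reach, and 4 when each label was read at its most probable feature, when labels were left as they stand, by limma, and, as an alternative chosen after seeing the data, when Meg3 was counted by its candidates. By limma, 4 members were higher, and 3 with libraries scaled to equal totals, where Igf2r lost its call. With 1 library left out, the limma log2 fold change of Igf2r ranged from 1.19 to 2.32. Of 43 placed other imprinted genes, 40 with a mean of 10 or more, 12 were called higher by the authors' test. The count was 11 to 16 under the alternatives, some of which read more or fewer labels. Of 41 placed partners and relatives, all with a mean of 10 or more, 8 were called higher by the authors' test. That test called 4.12% of all tested features higher, 8.86% where the mean reached 10 and 58.5% where it reached 100. Limma called 17 of the partners and relatives higher, and 19.2% of all its features. As labels stand, 1 other imprinted gene and 1 partner were lower, against 0 in every other setting run. Labels as they stand also gave log2 ratios of 2.38 for H19, 2.93 for Cdkn1c, 4.66 for Grb10, -1.44 for Igf2r and -0.25 for Phlda2. Log2 ratios of group means without 1 library ranged from 3.45 to 5.36 for H19, 4.53 to 6.25 for Cdkn1c, 3.28 to 3.93 for Grb10, 1.16 to 2.30 for Igf2r and -0.09 to 0.998 for Phlda2. Scaling to equal totals of recovered reads moved the median limma log2 fold change of all features from 0.11 to -0.59 and the limma calls from 3172 higher and 474 lower to 1786 and 2864, while H19, Cdkn1c and Grb10 kept their call (3.66, 4.64 and 2.89). Bone marrow values of H19 and Cdkn1c rest on 21 to 27 reads per library, and Phlda2 on at most 20. No paired analysis was possible because the groups share a single replicate number and the table does not tie libraries to numbers.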
